A study of Sus scrofa with 27 samples.

Results

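The 13 protein-coding genes of the pig mitochondrial genome and 27 nuclear genes that copy, transcribe or process it were compared between feed-restricted (RES) and full-fed (FF) sows. The nuclear genes were chosen by symbol for these roles, and a mean count of at least 5 per library was required. All 40 genes listed met it, out of 11384 named genes tested. RNA-seq was performed on mural granulosa cells (GCs), the cells that line the wall of the follicle, with 1 library for each of 13 FF sows and 14 RES sows. FF sows received 6.5 kg of feed per day and RES sows 3.25 kg per day over the last 2 weeks of lactation. All sows were wild-type first-parity animals of a Large White and Norwegian Landrace cross, received the same feed allowance after weaning, and gave tissue on day 2 after it. The GCs came by laser capture from the healthy right-ovary follicle of largest size, and the animals had been chosen for extreme body weight loss within RES and little loss within FF, so that diet and this choice cannot be told apart.

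The mitochondrial genome is a small circular DNA that encodes core subunits of respiratory complexes I, III and IV and of the ATP synthase. Its strands are transcribed into long RNAs that cover many genes, from which transfer RNAs are cut out to release the messages, and these are then given tails, stabilised or degraded by proteins made from nuclear genes. Other nuclear-encoded proteins pack, unwind and copy the DNA. Steroid-producing cells such as GCs depend on mitochondria also for the first step of steroid synthesis, which takes place at their inner membrane.

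The libraries held 12299220 to 16021200 counts in FF and 12942198 to 18120922 in RES. Of the granulosa markers, 0 of 8 tested were called by edgeR at an adjusted p under 0.05, where 14.1% of all 11384 genes tested were called, and 1 of 8 had an unadjusted p under 0.05. This was INHBB, a subunit of inhibin and activin, with a log2 fold change of 0.66 (edgeR adjusted p = 0.0907), which voom called (adjusted p = 0.00305). The summed level of the granulosa markers was 71150 to 121900 normalised counts in FF and 76750 to 146800 in RES. A normalised count is a count divided by the size factor of its library. Markers of other cells of the follicle wall or of blood that passed the test were all lower in RES. They were CYP11A1 of 8 theca markers, CDH5 of 4 endothelial markers, PDGFRB and RGS5 of 4 smooth muscle and pericyte markers, and HBB of 2 erythroid markers, while 0 of 3 immune markers and 0 of 1 oocyte marker passed. Voom called 3 theca, 3 endothelial, 3 smooth muscle and pericyte, 1 immune, 1 erythroid and 0 oocyte markers, against 28% of all genes. PDGFRB kept its edgeR call in 12 of 27 fits without 1 library, and HBB moved from -1.89 to -1.10 on the log2 scale (edgeR adjusted p = 0.0877) without FF sow 14. The summed smooth muscle and pericyte markers lay at 2730 to 7621 normalised counts in FF and 1790 to 7425 in RES, and the summed theca markers at 2778 to 14630 and 1556 to 13250. Their summed endothelial counterpart was 730.8 to 1427 in FF and 514.7 to 1712 in RES, and the erythroid one 35.48 to 1045 and 9.629 to 146.9. The part of these cells in the values that follow was not tested, and fewer cells of a type cannot be told apart from less RNA per cell. Libraries also fell into an upper (7 FF, 7 RES) and a lower (6 FF, 7 RES) read quality group. Among upper quality libraries, where 17.8% of all genes were called, 2 of 8 granulosa markers (INHBB and AMH) were called higher in RES. All 4 endothelial markers, RGS5, CD163 of the immune markers, HBB and the oocyte marker GDF9 were called lower there. Among lower quality libraries 0 markers of any list were called, where 0.00878% of all genes were called. AMH was near the count minimum, with means of 5.684 normalised counts in FF and 7.325 in RES. In the lower quality group its log2 fold change was -0.87 (edgeR adjusted p = 0.425).

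The 13 mitochondrial genes lie close together, and 3 pairs of them overlap, which decides how their reads could be counted. The stretches below are from the RefSeq sequence of Sscrofa11.1, read on the plus strand, with the bases shared by both genes in capitals and 12 bases on each side. They are shown because a read pair that touched 2 genes was assigned to neither under the counting settings in the file headers.
ATP8/ATP6 at chrMT:9108-9174: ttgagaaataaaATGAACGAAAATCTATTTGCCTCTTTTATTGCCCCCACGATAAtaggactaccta
ND4L/ND4 at chrMT:11347-11377: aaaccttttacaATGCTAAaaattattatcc
ND5/ND6 at chrMT:14727-14767: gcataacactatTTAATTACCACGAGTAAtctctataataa
The shared stretch measured 43 bases for ATP8 and ATP6, 7 bases for ND4L and ND4, and 17 bases for ND5 and ND6. ND6 is the only one of the 13 on the minus strand, and the counting command set no strand option, so reads of its antisense strand could add to its count.

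Only uniquely mapped reads had been kept by the authors, so a mitochondrial read that also matched a nuclear copy of the same sequence would be lost. In the reference, 5 of the 13 genes had a nuclear stretch of at least 100 bases at 98% identity or more. It covered 96.1% of ATP8, with 98.7% identity to a stretch at chr9:4701655-4702188. The same kind of stretch covered 43.7% of COX1, 39.2% of COX2, 34.5% of ND2 and 15.7% of ND1. For ND3, ND4, ND4L, ND5, ND6, CYTB, COX3 and ATP6 the covered share was 0%, and their closest nuclear match found had 90.8% to 94.9% identity. Counts of ATP8, and to a lesser degree of COX1, COX2, ND2 and ND1, are therefore uncertain as levels.

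The 27 libraries separated into 2 sets by the relative level of ATP8, a small subunit of the ATP synthase, and both diets were present in each set. In 11 libraries the ATP8 level per kb was 0.0306 to 0.0951 of the ATP6 level per kb, and in the other 16 it was 0.175 to 0.275. The low set held 6 FF sows (3, 4, 5, 8, 11 and 12) and 5 RES sows (6, 7, 8, 9 and 14), and the high set 7 FF and 9 RES sows. ND3, a subunit of complex I, went the other way, with a ratio to ND4 per kb of 0.387 to 0.53 in the low set and 0.187 to 0.322 in the high set.

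**Figure D1:**
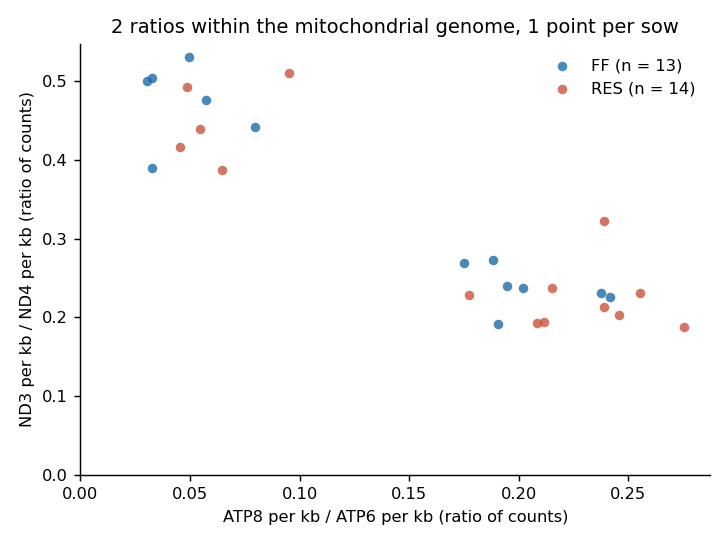
Ratio of ATP8 to ATP6 (x axis) and of ND3 to ND4 (y axis), each from counts per kb, with 1 point per sow in FF (blue, n = 13) and RES (red, n = 14). The 11 libraries at 0.0951 or less on the x axis lie at 0.387 or more on the y axis, and the 16 others at 0.322 or less, with FF and RES sows in both sets.

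As a share of all counts on the 13 genes, ATP8 took 0.0646% to 0.161% in the low set and 0.294% to 0.46% in the high set. ND2 took 4.28% to 5.22% and 6.8% to 8.48%, ND3 1.06% to 1.47% and 0.4% to 0.692%, and ND4 10.9% to 12.3% and 7.87% to 9.23%. The values of ATP8 were fixed by the split, which its ratio to ATP6 defined. The low set held 5 upper and 6 lower quality libraries and the high set 9 and 7. The summed normalised count of the 13 genes was 1049000 to 1985000 in the low set (median 1502000) and 1510000 to 3053000 in the high set (median 2080000). The parts of read quality and of the nuclear copies in the split were not tested. The sequence of each sow's mitochondrial genome was not measured here, so for ATP8, ND2, ND3 and ND4 a difference in how reads mapped cannot be told apart from a difference in RNA level between the sets. The sets were found in these values, so they are described without a test, and diet was compared over all libraries and also within each set.

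Per kb of gene, the subunits of complex IV stood highest among the 13 genes. COX2 reached a mean of 338400 ± 105300 normalised counts per kb (SD) over 13 FF sows and 412600 ± 130500 over 14 RES sows. COX3 followed with 278800 ± 60040 and 313000 ± 65670, and COX1, the catalytic subunit, with 269100 ± 59120 and 276100 ± 56710. In FF, COX2 and COX3 lay closer together than 1 SD of either, and in both groups so did COX3 and COX1. These SDs are between sows, and the order of the genes within each sow was not tested. ATP6, ND5, CYTB, ND4 and ND2 formed a middle range of 106100 to 157600 per kb in FF and 127500 to 157800 in RES. ND1, ND6, ND4L, ND3 and ATP8 were lower, from 22110 to 69850 in FF and from 28370 to 89450 in RES, with ATP8 at the bottom in both groups. This order was not the same in the 2 sets of libraries. In the low set ND2 stood at 70810 ± 14610 per kb (SD, 11 libraries), below ND4 at 128200 ± 22610, and in the high set at 149100 ± 26800 (SD, 16 libraries), where ND4 was at 132900 ± 24550. ND3 stood at 59300 ± 12730 in the low set, within 1 SD of ND4L and ND6, and at 30550 ± 7001 in the high set, within 1 SD of ATP8 at 37810 ± 9428. ND4L, which is translated from the same message as ND4, was counted at 0.49 ± 0.0657 of the ND4 level per kb in FF and 0.49 ± 0.0541 in RES. ND6 stood at 0.465 ± 0.0887 of the level of its overlapping neighbour ND5 in FF and at 0.519 ± 0.108 in RES.

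**Figure D2:**
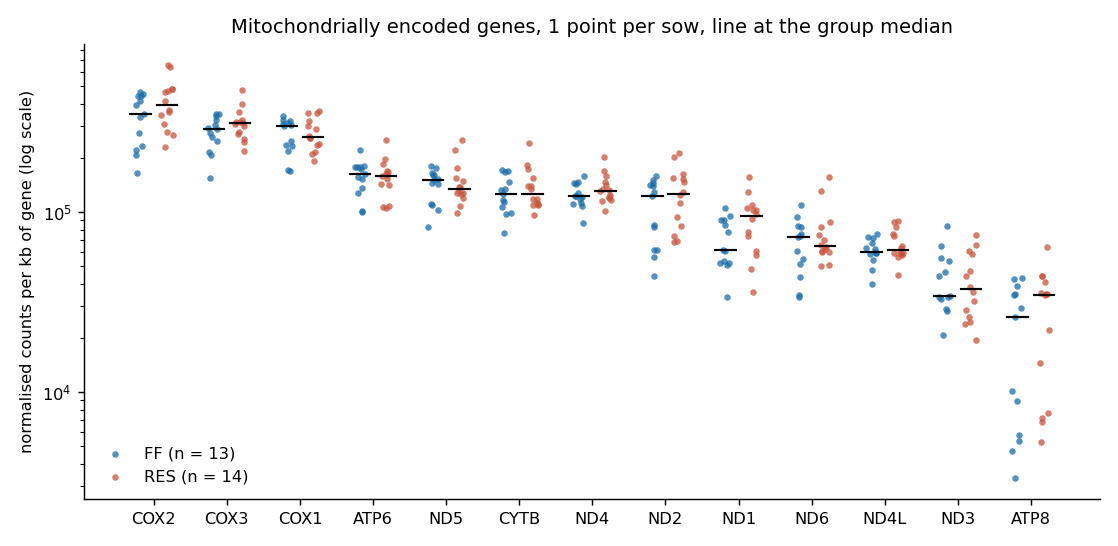
Normalised counts per kb of gene (log axis) of the 13 mitochondrially encoded genes, ordered by their mean, with 1 point per sow for FF (blue, n = 13) and RES (red, n = 14) and a line at each group median. The groups overlap for every gene, and ATP8 lies lowest and spreads most, with means of 22110 and 28370 per kb.

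None of the 13 mitochondrially encoded genes passed the test of RES against FF. The quasi-likelihood test of edgeR called 0 of 13 at an adjusted p under 0.05, against 14.1% of all 11384 genes tested (8.29% higher and 5.85% lower in RES). At an unadjusted p under 0.05 the count was also 0 of 13, against 30% of all genes, and DESeq2 and limma voom called 0 of 13 as well, against 17% and 28%. The edgeR settings that changed the scaling, the filter or the covariates also called 0 of 13. Over all genes they called 15.1% with DESeq2 size factors, 14.3% without the 13 genes in the scaling, 15.8% and 9.96% with the filterByExpr filter and with no filter, and 13% over all identifiers. The share was 9.52% with the replicate block and 13.4% and 15% with RNA integrity and read quality as covariates. The log2 fold change was above 0 for 10 of the 13 genes (12 with DESeq2 size factors, 5 among upper and 13 among lower quality libraries), with a median of 0.09 and a range of -0.10 to 0.31, and the median of all genes was -0.02.

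Among the 7 subunits of complex I, the NADH dehydrogenase, ND1 had the largest difference. Its normalised count was 32400 to 100800 in FF sows (median 59130) against 34580 to 150400 in RES sows (median 90520). The ranges overlapped widely, although 10 of 14 RES sows lay above the FF median, and the log2 fold change was 0.31 (SE 0.19, edgeR adjusted p = 0.272). ND2 was 128100 at the FF median (range 45930 to 166200) and 131600 at the RES median (range 71080 to 221400). ND4 was 120200 to 218600 (median 169800) and 139300 to 279400 (median 181400). Both had medians closer together than the spread between sows, with log2 fold changes of 0.22 (SE 0.21) for ND2 and 0.08 (SE 0.10) for ND4. ND5 was between 150200 and 330200 in FF, with a median of 274200, and between 180800 and 456200 in RES, with a median of 244900, and ND6 17830 to 58140 (median 38640) and 26610 to 82420 (median 34340). For ND5 and ND6 the RES median was the lower one while the fitted log2 fold change was above 0, at 0.02 (SE 0.14) and 0.15 (SE 0.19), and the highest values were those of RES sow 2 and RES sow 13. ND4L was 11870 to 22310 in FF sows (median 17940) against 13250 to 26530 in RES sows (median 18330). ND3 was 7188 to 29090 (median 11870) and 6763 to 25930 (median 12890), and its log2 fold change was the lowest of the 13 at -0.10 (SE 0.21, edgeR adjusted p = 0.802).

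CYTB, the only mitochondrially encoded subunit of complex III, was 144400 at the FF median (range 87150 to 195700) and 143900 at the RES median (range 109300 to 274900), a log2 fold change of 0.07 (SE 0.14). Of complex IV, COX2 was between 114100 and 320000 in FF, with a median of 242000, and between 157700 and 453800 in RES, with a median of 269200. With 5 RES sows above the highest FF sow, COX2 had a log2 fold change of 0.24 (SE 0.17, edgeR adjusted p = 0.381). COX1 was 262600 to 529500 in FF sows (median 465900) against 297200 to 561600 in RES sows (median 403500), and COX3 121200 to 275500 (median 227000) and 171000 to 371700 (median 244200). COX1 had a log2 fold change of -0.01 (SE 0.13), whose sign turned with the scaling used, and COX3 one of 0.12 (SE 0.12). ATP6, which forms part of the proton channel of the ATP synthase, was 111400 at the FF median (range 68540 to 150500) and 108700 at the RES median (range 71680 to 171100). ATP8 was between 677.6 and 8726 in FF, with a median of 5298, and between 1073 and 13080 in RES, with a median of 7106, with a log2 fold change of 0.30 that had an SE of 0.42. This was the largest SE of the 13, which began at 0.10 for ND4.

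Within the read quality groups the 13 genes had a median log2 fold change of -0.02 (upper) and 0.24 (lower), with 0 of the 13 called in each. Over all genes 17.8% were called in the upper group and 0.00878% in the lower. Within the ATP8 sets the median log2 fold change of the 13 was 0.17 in the low set (6 FF, 5 RES) and 0.01 in the high set (7 FF, 9 RES). Again 0 of the 13 were called, where 0% of all genes were called in the low set and 7.02% in the high set.

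The share of the mitochondrial genome in the libraries overlapped between the groups. The 13 genes held 8.76% to 15.3% of all counts in FF sows, with a median of 12.5%, and 10.4% to 16.5% in RES sows, with a median of 13.5%. Of the RES sows, 10 of 14 lay above the FF median, 2 above the highest FF sow, and 2 FF sows lay below the lowest RES sow. The mean log2 share was higher by 0.10 in RES, less than the pooled SD of 0.21. The share moved with the ATP8 sets, of which 6 of 13 FF and 5 of 14 RES sows were in the low one. In the low set it was 8.76% to 12.5% in FF (median 11.5%) against 10.4% to 13.5% in RES (median 11.7%). In the high set it was 12.2% to 15.3% (median 13.5%) against 12.2% to 16.5% (median 14.2%), so that FF and RES overlapped in each. The order of the medians depended on the denominator, since of the counts on named genes alone the share was 22.4% in FF and 21.7% in RES.

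The spread of the 13 genes between sows includes the distance between the 2 sets. The SD of the log2 level within FF and RES had a median of 0.36 over the 13 genes, from 0.24 for ND4 to 1.31 for ATP8, against 0.26 over 1556 other genes with a mean of at least 1000 normalised counts. Within diet and set the median of the 13 was 0.29, and that of the 27 nuclear genes was 0.295. These 2 medians were not matched for count level. Mean counts were 5251 to 424100 for the 13 genes and 14.48 to 2418 for the nuclear genes. The lower SD of ATP8 within the sets was fixed by the split, and the 1556 genes were not measured within sets. In the subsets with at least 6 sows, most pairs of the 13 genes were positively correlated, and the 5 RES sows of the low set were too few for an r. The median Pearson r over their 78 pairs was 0.85 in the FF sows of the low set (n = 6), 0.66 in the FF sows of the high set (n = 7) and 0.83 in the RES sows of the high set (n = 9). All 78 pairs were above 0 in the first and last of these and 76 in the other, where ND1 with COX1 was lowest at -0.03. ND3 and ATP8, which part the sets in opposite directions, had an r of 0.83, 0.55 and 0.81 in these same subsets. The correlations share 1 size factor per library and are given as a description, and no r over both sets together is given because the sets lie apart.

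Of the 27 nuclear genes, TFAM and SLIRP were higher in RES and none was lower. This makes 2 of 27 called by edgeR, while 14.1% of all genes were called. DESeq2 called 2 and voom 3 of the 27, against 17% and 28% of all genes. At an unadjusted p under 0.05 the count was 7 of 27, against 30% of all genes. The log2 fold change was above 0 for 18 of the 27 genes, with a median of 0.10, and for 47.3% of all genes. With DESeq2 size factors it was above 0 for 21 of the 27 and for 54.3% of all genes.

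**Figure D3:**
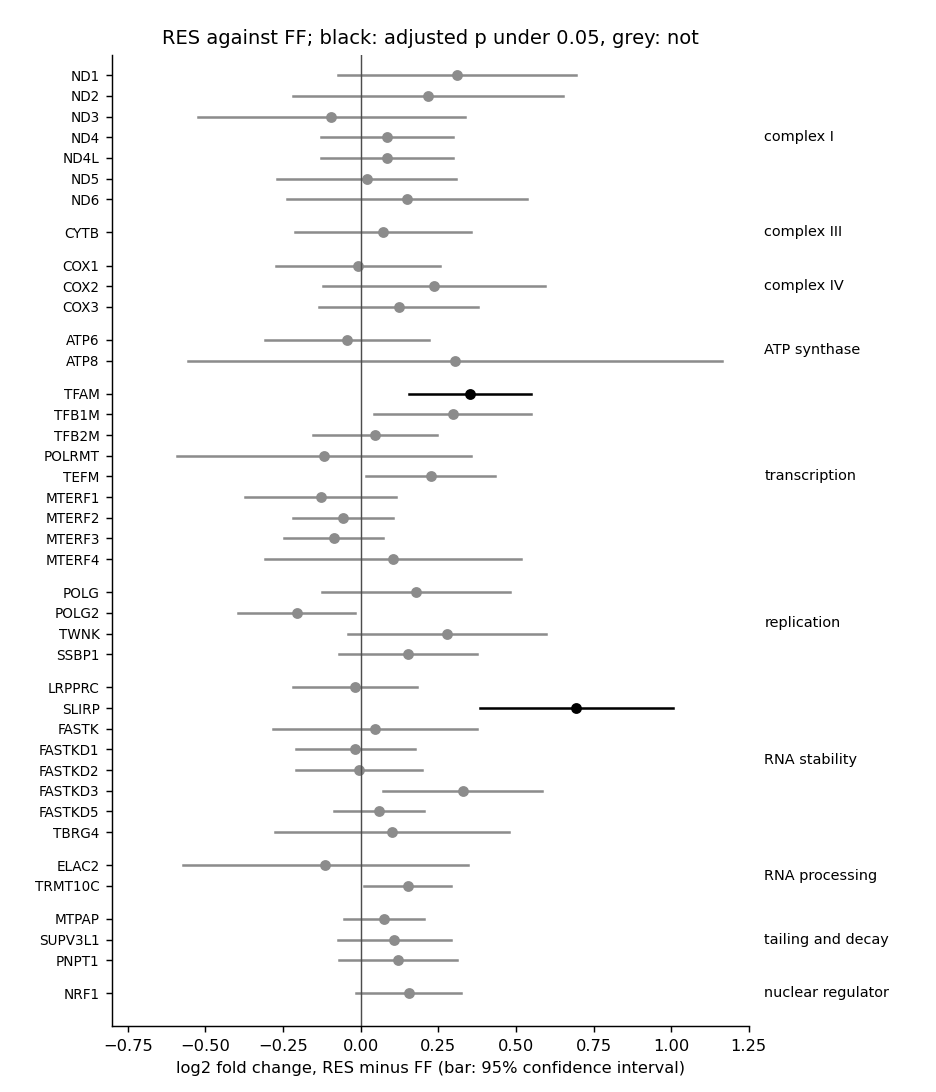
Log2 fold change of RES against FF (x axis) with its 95% confidence interval for the 40 genes, grouped by role, from edgeR; black marks an adjusted p under 0.05 and grey the rest. Of the 40 genes, TFAM and SLIRP are marked, and the intervals of all 13 mitochondrially encoded genes cross 0.

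TFAM is the protein that coats mitochondrial DNA and bends its promoters for transcription. Its gene (ENSSSCG00000040185) lies at chr14:92261713-92279731 on the minus strand of Sscrofa11.1. TFAM measured 565 to 925.7 normalised counts in FF sows (median 749.7) against 635.2 to 1267 in RES sows (median 1019). The groups overlapped, but 12 of 14 RES sows lay above the FF median and 8 above the highest FF sow. The log2 fold change was 0.35 (SE 0.10, 1.28-fold, 95% confidence interval 0.16 to 0.55, edgeR adjusted p = 0.0149). It was called in all 27 fits that left out 1 library, in which 10.4% to 20.6% of all genes were called. Among upper quality libraries it was 0.43 (adjusted p = 0.00902) and among lower quality ones 0.27 (adjusted p = 0.512), where 0.00878% of all genes were called. In neither ATP8 set was TFAM called, at 0.40 (adjusted p = 0.452) in the low set, in which 0% of all genes were called, and 0.32 (adjusted p = 0.159) in the high set, with 7.02% called.

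The other transcription genes did not pass the test over all libraries. POLRMT, the RNA polymerase that transcribes mitochondrial DNA, was 33.72 normalised counts at the FF median (range 20.18 to 107.6) and 34.24 at the RES median (range 9.806 to 71.82). The medians were close and the highest FF value was that of FF sow 10, without which the log2 fold change went from -0.12 (SE 0.23) to 0.12. TFB2M, which opens the promoter with POLRMT, was 111.8 to 223.6 in FF and 125.6 to 214.2 in RES, and its log2 fold change was 0.05 (SE 0.10). TFB1M, a methyltransferase of the small mitochondrial ribosomal RNA, was between 60.78 and 144.7 in FF, with a median of 94.33, and between 76.42 and 171.6 in RES, with a median of 129.3. The TFB1M difference was 0.30 on the log2 scale (SE 0.12, edgeR adjusted p = 0.103). It was called in the upper quality group, at 0.47 (adjusted p = 0.0454), but not in the lower, at 0.11 (adjusted p = 0.871), a difference that was not tested. It was also called without FF sow 13 and without RES sow 10. TEFM, which helps the polymerase to elongate, was 46.27 to 92.14 in FF sows (median 59.45) against 54.96 to 102.7 in RES sows (median 73.99). Although 13 of 14 RES sows lay above the FF median, the edgeR adjusted p of TEFM was 0.133 at a log2 fold change of 0.23 (SE 0.10), and it was called only without FF sow 3 among all settings run. The 4 members of the MTERF family, which bind mitochondrial DNA or ribosomal RNA, had log2 fold changes of -0.13 (MTERF1), -0.06 (MTERF2), -0.09 (MTERF3) and 0.10 (MTERF4), with edgeR adjusted p from 0.485 to 0.773.

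Of the 4 replication genes, none was called over all libraries. POLG, the catalytic subunit of the mitochondrial DNA polymerase, was 36.60 normalised counts at the FF median (range 29.08 to 84.84) and 45.91 at the RES median (range 31.60 to 71.82). TWNK, the helicase that unwinds the DNA ahead of it, was between 51.42 and 131.7 in FF, with a median of 71.46, and between 59.25 and 162.4 in RES, with a median of 86.45. For POLG 13 of 14 and for TWNK 10 of 14 RES sows lay above the FF median, with log2 fold changes of 0.18 (SE 0.15, edgeR adjusted p = 0.447) and 0.28 (SE 0.16, edgeR adjusted p = 0.233). TWNK stood at 0.60 (adjusted p = 0.0324) in the upper, where 17.8% of all genes were called, and -0.07 (adjusted p = 0.945) in the lower group. The difference between these TWNK values was not tested. POLG2, the accessory subunit that keeps the polymerase on the DNA, had the lowest log2 fold change of all 40 genes. It was 111.4 to 233.6 in FF sows (median 172.4) against 113.9 to 207.2 in RES sows (median 155.8), a log2 fold change of -0.21 (SE 0.09, edgeR adjusted p = 0.129), and only 3 of 14 RES sows lay above the FF median. Without FF sow 10 the POLG2 difference was called (adjusted p = 0.0429). SSBP1, which coats single-stranded mitochondrial DNA, was 208.9 to 479.6 in FF and 303.5 to 569.9 in RES, and its log2 fold change was 0.15 (SE 0.11).

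SLIRP showed the largest difference of the 40 genes. It is the small RNA-binding partner of LRPPRC, and the complex of the 2 proteins protects mitochondrial messages and supports their tailing. The gene (ENSSSCG00000028167) lies at chr7:100710472-100718290 on the plus strand. SLIRP measured 172.4 normalised counts at the FF median (range 83.57 to 243.9) and 282.8 at the RES median (range 141.3 to 444.5). Of 14 RES sows, 12 lay above the FF median and 10 above the highest FF sow, while 2 FF sows lay below the lowest RES sow. The log2 fold change was 0.69 (SE 0.15, 1.62-fold, 95% confidence interval 0.38 to 1.01, edgeR adjusted p = 0.00328). SLIRP was called in all 27 fits that left out 1 library, and in the upper quality group (0.55, adjusted p = 0.0308). In the lower group the estimate was 0.83 (adjusted p = 0.18), and in the ATP8 sets 0.56 (low, adjusted p = 0.452) and 0.79 (high, adjusted p = 0.0433).

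LRPPRC, the partner of SLIRP, did not pass the test. It was between 1067 and 2898 normalised counts in FF, with a median of 2451, and between 1793 and 3154 in RES, with a median of 2359, with a log2 fold change of -0.02 (SE 0.10, edgeR adjusted p = 0.922). The lowest LRPPRC value, like the lowest SLIRP value, belonged to FF sow 10. The FASTK family, whose proteins act on the stability and cleavage of particular mitochondrial messages, had log2 fold changes of 0.05 (FASTK), -0.02 (FASTKD1), -0.01 (FASTKD2), 0.33 (FASTKD3), 0.06 (FASTKD5) and 0.10 (TBRG4, also known as FASTKD4). FASTKD3 was the highest of them, at 53.18 to 176.7 normalised counts in FF sows (median 88.79) against 82.87 to 161.1 in RES sows (median 128.5). For FASTKD3, 13 of 14 RES sows lay above the FF median and 6 FF sows below the lowest RES sow, and the edgeR adjusted p was 0.0743, with voom at 0.00734. It was called also without FF sow 3, FF sow 4 or RES sow 7.

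**Figure D4:**
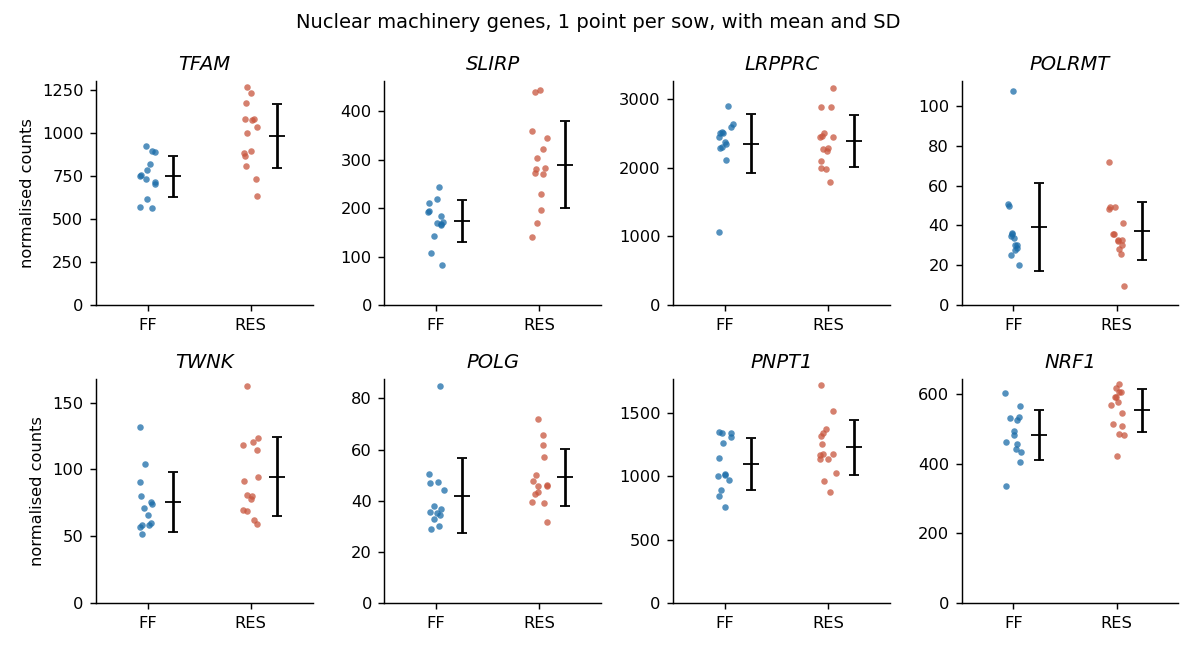
Normalised counts (y axis, from 0) of 8 nuclear genes, with 1 point per sow for FF (blue, n = 13) and RES (red, n = 14) and the mean and SD beside them. For SLIRP 10 of 14 RES sows and for TFAM 8 of 14 lie above the highest FF sow, whereas LRPPRC and POLRMT overlap throughout, with FF sow 10 apart from the other FF sows in both.

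None of the genes that cut, tail and degrade mitochondrial RNA passed the test. ELAC2, which cuts transfer RNAs at their 3′ end, was near the count minimum, at 7.573 to 26.59 in FF and 5.448 to 28.56 in RES (log2 fold change -0.11, SE 0.22). TRMT10C, a subunit of the enzyme that cuts them at the 5′ end, was 379.3 at the FF median (range 330.8 to 461.2) and 446.3 at the RES median (range 350.4 to 542.7). With 12 of 14 RES sows above the FF median, TRMT10C had a log2 fold change of 0.15 (SE 0.07, edgeR adjusted p = 0.138). MTPAP, the polymerase that adds the poly(A) tail, was 222.9 to 343.0 in FF and 257.6 to 332.9 in RES (log2 fold change 0.08, SE 0.06). SUPV3L1, a helicase, and PNPT1, an exonuclease, together degrade mitochondrial RNA. SUPV3L1 was between 101.3 and 273.9 in FF, with a median of 205.7, and between 187.9 and 269.3 in RES, with a median of 235.0, and PNPT1 758.5 to 1345 (median 1016) and 875.3 to 1720 (median 1174). Neither passed the test, with log2 fold changes of 0.11 (SE 0.09) and 0.12 (SE 0.09) and edgeR adjusted p of 0.438 and 0.41. NRF1, a nuclear factor that activates genes of the respiratory chain and of this machinery, was 337.1 to 602.7 in FF sows (median 483.4) against 421.8 to 629.9 in RES sows (median 573.8). Its log2 fold change was 0.16 (SE 0.08, edgeR adjusted p = 0.205), with 12 of 14 RES sows above the FF median.

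The 250 bases before the annotated start of the 2 called genes are given because NRF1 and the GABP factor are known regulators of this gene class. They are from the RefSeq sequence of Sscrofa11.1, each on the strand of its gene, and capitals mark matches to the NRF1 letters (GCGCA and GCGC with any 1 base between them) or the GABP letters CCGGAAG on either strand.
TFAM at chr14:92279732-92279981: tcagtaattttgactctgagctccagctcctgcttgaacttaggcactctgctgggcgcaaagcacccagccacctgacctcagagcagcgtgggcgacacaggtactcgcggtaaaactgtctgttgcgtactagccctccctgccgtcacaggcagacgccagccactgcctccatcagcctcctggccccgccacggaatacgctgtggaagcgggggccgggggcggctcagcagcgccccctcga
SLIRP at chr7:100710222-100710471: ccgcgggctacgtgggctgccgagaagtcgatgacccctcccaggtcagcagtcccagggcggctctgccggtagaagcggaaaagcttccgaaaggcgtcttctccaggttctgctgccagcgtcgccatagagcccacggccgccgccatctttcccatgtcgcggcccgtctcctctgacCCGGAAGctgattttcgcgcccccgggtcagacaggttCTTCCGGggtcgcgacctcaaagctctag
SLIRP held 2 matches to the GABP letters, which begin 67 and 29 bases before the start, and TFAM held 0 matches to either set of letters in this window. Over all 27 nuclear genes, 7 windows held the GABP letters (TFB1M, TEFM, MTERF1, MTERF3, SLIRP, TBRG4 and ELAC2), against 7.78% of 19506 windows of the same length and 10.8% of those of tested genes. The NRF1 letters were in 3 windows (TFB1M, FASTKD2 and FASTKD3), against 4.76% of all and 7.03% of those of tested genes. CCAAT, a common promoter element, was in 9 of the 27 windows and in 31.9% of all, and none of the 3 sets of letters contains another.

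The relation between the level of the mitochondrial genome and that of its machinery changed with the sows included. Over 13 FF sows, the summed mitochondrial level and the mean level of the 27 nuclear genes had a Pearson r of 0.13 and a Spearman rho of 0.02, and over 14 RES sows the values were 0.29 and 0.34. Leaving out the 2 sows farthest from the median mitochondrial level gave an r of -0.20 in FF and 0.54 in RES, so the size of the relation depended on those libraries. Within the upper and lower quality groups r was -0.10 (n = 7) and 0.39 (n = 6) in FF and 0.29 (n = 7) and 0.37 (n = 7) in RES. Within the ATP8 sets it was 0.97 in the FF sows of the low set (n = 6), 0.38 in the FF sows of the high set (n = 7) and -0.04 in the RES sows of the high set (n = 9). Both levels share a size factor per library, and these values are descriptions without a test.

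For single nuclear genes, the r with the summed mitochondrial level had a median of 0.07 in FF and 0.17 in RES over the 27 genes, where all other genes tested had medians of -0.02 and 0.03. TFAM had the highest value in FF (0.41, and 0.30 in RES) and SLIRP the highest in RES (0.61, and 0.16 in FF). The lowest were NRF1 in FF (-0.39) and FASTKD5 in RES (-0.48). These values pool the ATP8 sets, between which the summed mitochondrial level differs. In the subsets of 6 FF (low), 7 FF (high) and 9 RES sows (high) the r was 0.66, 0.20 and 0.28 for TFAM and 0.81, -0.08 and 0.67 for SLIRP, and the median of the 27 genes was 0.49, 0.20 and 0.05. Of 9500 genes with a mean of at least 20 normalised counts, those most like the summed mitochondrial level over 27 sows were NKAPD1 (r = 0.625), ZNF581 (0.59), NDUFAF1 (0.58), BRAP (0.58) and KIAA1328 (0.55). This order pools both diets and both ATP8 sets. Within FF and RES the r was 0.45 and 0.75 for NKAPD1, 0.75 and 0.42 for ZNF581, 0.61 and 0.51 for NDUFAF1, 0.58 and 0.54 for BRAP, and 0.35 and 0.79 for KIAA1328. None of these 5 is among the 27 nuclear genes, and NDUFAF1 is an assembly factor of complex I. Among themselves the nuclear genes had a median r of 0.09 in FF and 0.13 in RES over 351 pairs. In the ATP8 subsets of 6 FF, 7 FF and 9 RES sows it was 0.07, 0.10 and 0.21, below the 0.85, 0.66 and 0.83 of the 13 mitochondrially encoded genes in the same sows. The nuclear genes had mean counts of 14.48 to 2418, against 5251 to 424100 for the 13. The part of this difference in count level in the lower r was not tested.

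Of 6 correlations between genes whose proteins work as partners, 5 passed after adjustment over the 6. Pairs outside these 6 reached values as high, with an r of 0.94 for LRPPRC with SUPV3L1 in FF (0.66 without FF sow 10, the lowest for both) and 0.86 for SSBP1 with LRPPRC in RES. POLG and TWNK, which meet at the replication fork, had an r of 0.87 over 13 FF sows (permutation adjusted p = 0.00102) and 0.72 over 14 RES sows (permutation adjusted p = 0.00748). Spearman's rho was 0.80 (permutation p = 0.00164) and 0.75 (permutation p = 0.00331), and without the 2 farthest sows r was 0.85 and 0.70. Without FF sow 10, which was highest in FF for both genes, r in FF was 0.76 (permutation adjusted p = 0.00854). LRPPRC and SLIRP had an r of 0.82 in RES (permutation adjusted p = 0.00114, rho 0.77 with permutation p = 0.00178, and 0.67 without the 2 farthest sows). In FF their r of 0.73 (permutation adjusted p = 0.0209) rested on FF sow 10, as it was 0.23 without this library and 0.20 without the 2 farthest, with a rho of 0.35 (permutation p = 0.238). SUPV3L1 and PNPT1 had an r of 0.65 in FF (permutation adjusted p = 0.00888, rho 0.61 with permutation p = 0.03) that fell to 0.44 without FF sow 10 and to 0.34 without the 2 farthest. In RES the same pair stood at 0.53 (permutation adjusted p = 0.051, rho 0.55 with permutation p = 0.0463, and 0.69 without the 2 farthest).
Within the upper and lower quality groups the r of POLG with TWNK was 0.76 and 0.89 in FF (exact permutation p = 0.051 and 0.00972). In RES it was 0.73 and 0.69 (exact permutation p = 0.0708 and 0.0802). LRPPRC with SLIRP had 0.30 and 0.79 in FF (exact permutation p = 0.508 and 0.0181) and 0.91 and 0.73 in RES (0.00258 and 0.0474). SUPV3L1 with PNPT1 had 0.45 and 0.71 in FF (exact permutation p = 0.32 and 0.0583) and 0.65 and 0.71 in RES (0.116 and 0.0613). These p were not adjusted.

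**Figure D5:**
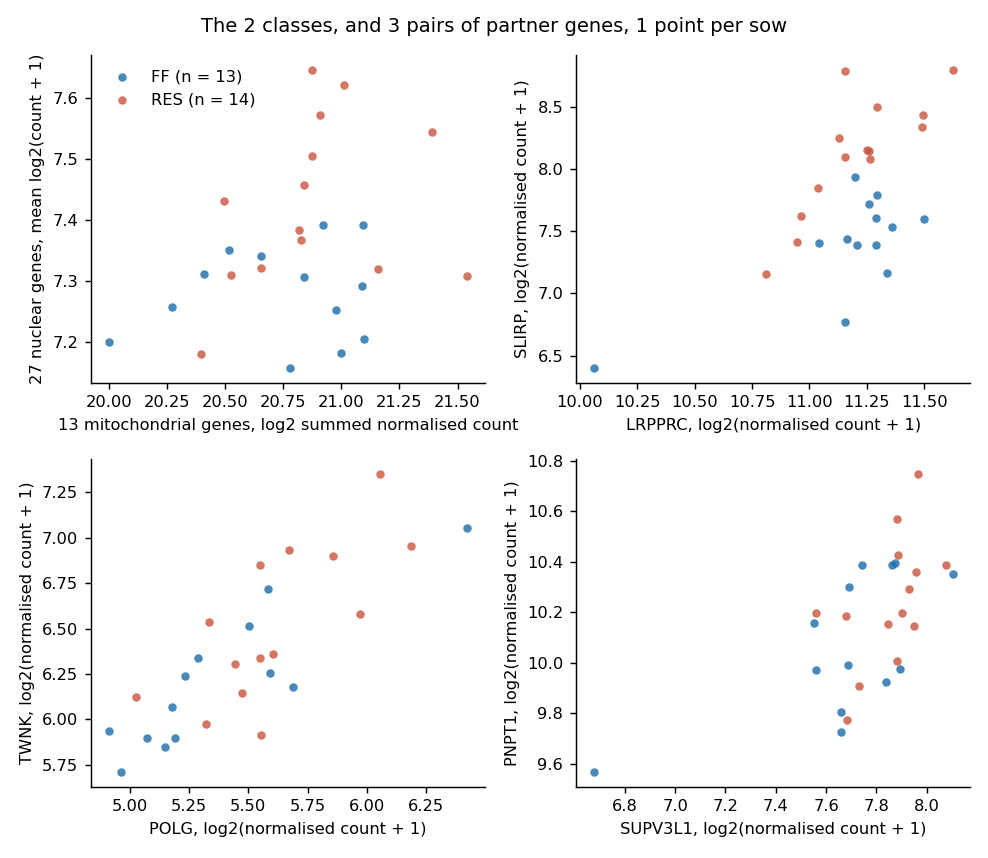
Log2 of the summed normalised count of the 13 mitochondrial genes against the mean log2 level of the 27 nuclear genes. The other panels show 3 partner pairs on log2(normalised count + 1) axes. Each point is 1 sow, in FF (blue, n = 13) or RES (red, n = 14). The classes scatter widely (r = 0.13 and 0.29), POLG and TWNK rise together in both groups (r = 0.87 and 0.72), and FF sow 10 is the lone point at the lower left for LRPPRC with SLIRP and for SUPV3L1 with PNPT1.

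Of 54 other tested genes of mitochondrial DNA and RNA metabolism, 6 were called, 5 higher and 1 lower in RES, against 14.1% of all genes. Of 10 further replication and nucleoid genes, DNA2 and MGME1, nucleases that trim DNA ends during replication, were higher. DNA2 was 214.6 normalised counts at the FF median (range 101.9 to 514.1) and 495.1 at the RES median (range 162.7 to 1069), a log2 fold change of 1.03 (SE 0.25, edgeR adjusted p = 0.00729). MGME1 was 87.18 to 304.2 (median 160.1) and 94.85 to 382.6 (median 307.9), a log2 fold change of 0.64 (SE 0.19, edgeR adjusted p = 0.024). In both, 13 of 14 RES sows lay above the FF median. Of 9 nucleotide supply genes, RRM1, the large subunit of ribonucleotide reductase, was higher in RES, at 1423 to 3946 (median 2842) against 1024 to 2272 in FF (median 1670; log2 fold change 0.79, SE 0.13, edgeR adjusted p = 0.00183). Among upper quality libraries DNA2 was at 1.35 (adjusted p = 0.015), MGME1 at 0.85 (adjusted p = 0.0237) and RRM1 at 0.97 (adjusted p = 0.00793), against 0.62, 0.40 and 0.59 among lower quality ones (adjusted p = 0.433, 0.586 and 0.171). DNA2 and RRM1 also serve the replication of nuclear DNA. Of 26 RNA processing and modification genes, TRNT1, which adds CCA to transfer RNAs, was higher (0.37, SE 0.10, edgeR adjusted p = 0.0104) and METTL17, a factor of the small mitochondrial ribosomal subunit, was lower (-0.47, SE 0.16, edgeR adjusted p = 0.043). METTL17 lost the call in 15 of 27 fits that left out 1 library. Of 9 regulators of mitochondrial biogenesis, GABPB1, a subunit of the GABP factor, was higher (0.28, SE 0.08, edgeR adjusted p = 0.0246), while PPARGC1A, the coactivator PGC-1 alpha, was 11.36 to 126.7 in FF and 9.629 to 256.3 in RES (0.15, SE 0.46, edgeR adjusted p = 0.865). TRNT1, METTL17 and GABPB1 were called as well among upper quality libraries (0.35, -0.73 and 0.29), and not among lower quality ones (0.41, -0.21 and 0.28, adjusted p from 0.333 to 0.703). The regulators NFE2L2 (-0.65, edgeR adjusted p = 0.021) and MYC (1.015, edgeR adjusted p = 0.0221) were also called in the upper group. In the lower group they stood at 0.07 and -0.74 (edgeR adjusted p = 0.915 and 0.405).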

How the data were processed

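The authors had cleaned the reads with SOAPnuke, aligned them to Sscrofa11.1 (HISAT2 2.2.1), kept uniquely mapped reads (SAMtools 1.16.1), removed PCR copies by molecular identifier (UMI-tools 1.1.4) and counted pairs on exons of Ensembl release 110 genes without a strand option (featureCounts 1.6.2). The deposited values are whole-number counts for 35670 identifiers, not normalised. Each library is 1 sow.

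Here, 11384 identifiers with a symbol and a mean count of at least 5 were tested, small RNAs left out, with edgeR 4.0.16 (TMM, quasi-likelihood, Benjamini-Hochberg; a call is an adjusted p under 0.05). Normalised counts are counts divided by size factors of DESeq2 1.42.0. Partner correlations used log2(normalised count + 1) and 100000 two-sided permutations. Nuclear copies were found with BLAST 2.17.0, and positions come from RefSeq. Alternatives were DESeq2, limma 3.58.1 voom, other scalings and filters, a replicate block, RNA integrity and read quality (from the study's sample lists), and leaving out libraries. The genes, lists and tests were chosen with earlier results of these data known. Genes named were all 40, the called genes of the other lists and the 5 most like the mitochondrial level. METTL17's leave-one-out result, PPARGC1A, NFE2L2 and MYC were named after their values were seen. The ATP8 sets, with all values within them, were chosen after seeing the data. Tests were checked on simulated data. The study's records name FF sow 9 as left out for its RNA integrity, while its list shows the lowest value for FF sow 10, so the quality values of FF sow 10 are uncertain. The result of 1 marker gene within the quality groups is not reported here.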

Additional observations from a re-analysis of the deposited data

How the results depend on the processing

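The 0 calls among the 13 mitochondrially encoded genes held in all 15 alternatives (leaving out FF sow 10 is 1 of them) and 27 fits without 1 library. TFAM was called in 12 and SLIRP in 13 of the 15; TFAM was lost in the lower quality group and in both ATP8 sets, and SLIRP in the lower group and the low set, fits of fewer sows. The number of nuclear genes called was 2 in the other settings, but 4 (upper) and 0 (lower) within the quality groups, 0 in the low and 1 in the high ATP8 set (added after seeing the data), 3 with voom, and 2 to 4 in the fits without 1 library. Over all genes, 1610 were called, against 3193 with voom, 1 in the lower quality group, and 0 and 799 in the low and high ATP8 sets. Of the 1610 calls 944 were higher, against 1197 of 1719 with DESeq2 size factors. The log2 share of mitochondrial counts moved between 0.055 and 0.125. Of the partner correlations, 3 of 6 held without FF sow 10, against 5.

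Sow numbers did not pair the libraries: of 13 pairs, 2 had a correlation of deviations above 0.1, and 0 FF sows correlated best with their own number. With the replicate block 1084 genes were called, TFAM and SLIRP among them, and COX1 was at 0.029.

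Some log2 fold changes turned sign, and the cause was not tested. None of these was called over all libraries, and TWNK, which turned in the lower quality group, was called in the upper. With DESeq2 size factors COX1 was 0.037, ATP6 0.002, LRPPRC 0.023, FASTKD1 0.028 and FASTKD2 0.039, and with all identifiers 0.038, 0.003, 0.025, 0.029 and 0.042. Without the mitochondrial genes in TMM COX1 was 0.001 and FASTKD2 0.003, and without a count filter 0.006 and 0.008. With RNA integrity as covariate COX1 was 0.019 and POLRMT 0.044, and with voom COX1 0.112, ATP6 0.010, FASTK -0.006 and FASTKD1 0.002. In the upper quality group ND4 was -0.015, ND5 -0.125, ND6 -0.200, CYTB -0.088, COX3 -0.010, SUPV3L1 -0.017, POLRMT 0.371, MTERF2 0.007, FASTKD1 0.052 and ELAC2 0.070. In the lower group ND3 was 0.072, COX1 0.109, ATP6 0.115, MTERF1 0.006, LRPPRC 0.122, FASTKD2 0.044, POLG -0.086, TWNK -0.067, FASTK -0.087, FASTKD5 -0.040, TBRG4 -0.160 and NRF1 -0.006. In the low ATP8 set ND3 was 0.039, COX1 0.188, MTERF4 -0.049, FASTK -0.341 and TBRG4 -0.274, and in the high set ND4L -0.016, ND5 -0.040, ND6 -0.055, LRPPRC 0.009, FASTKD1 0.069 and FASTKD2 0.032. Without 1 library ND3 lay between -0.186 and 0.021, ND5 -0.063 and 0.053, CYTB -0.015 and 0.114, COX1 -0.052 and 0.024, ATP6 -0.114 and 0.004, POLRMT -0.210 and 0.116, LRPPRC -0.079 and 0.008, FASTK -0.022 and 0.114, FASTKD1 -0.050 and 0.025, and FASTKD2 -0.046 and 0.029.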
